A study of Mus musculus with 6 samples.

Results

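The 10 genes followed here mark immature neurons and their growth cones in primary cultures of mouse cerebral cortex: Sox11, Dcx, Tubb3, Tubb2b, Stmn1, Stmn2, Gap43, Basp1, Dpysl3 and Crmp1. They were taken by gene name from the array's own annotation, which gave 20 probes of 56595 for 10 of 37071 names. The cells came from cortices of C57/B6 mice at embryonic day 16 and grew in Neurobasal medium with B27 plus. There were 3 samples labelled as control cultures and 3 irradiated ones, which received terahertz radiation, electromagnetic waves shorter than microwaves. Daily sessions of 3 hours at 3.1 THz began at 5 days in vitro and ended at 9 days. All cells were harvested at 12 days, 3 days after the last session, and each sample was read on a 1-colour Agilent array. Nothing in the labels says that samples 1 to 3 of a group came from separate dissections, so the p-values reflect only how far these samples scatter, part of which may be technical.

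A young neuron extends an axon that is tipped by a growth cone, a motile structure in which actin pushes the membrane forward and microtubules follow. Doublecortin and the neuronal beta-tubulins build the microtubule array, stathmins bind free tubulin and promote disassembly, and collapsin response mediator proteins relay guidance cues to the cytoskeleton. Gap43 and Basp1 lie on the inner face of the growth cone membrane, while Sox11 is a SoxC transcription factor of newborn neurons. In developing cortex these genes are high while neurites grow and most decline as neurons mature.

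Of the 20 probes, 19 were kept because at least 3 of the 6 arrays read them well above background. Of these, 18 reached that mark on all 6 arrays. The probe left out, A_55_P2721279 for an Ensembl transcript of Stmn1, was well above background on 1 array. The probe with the highest mean stands for its gene and is called its main probe. Dcx, Stmn1, Stmn2, Dpysl3 and Sox11 have further kept probes. Sequences are shown for those that carry an Ensembl transcript or lie on the other strand, so that they can be told from the main probe of the gene. Positions are on mouse build mm9, as the array files give them.
Dcx A_55_P2632951 (transcript ENSMUST00000125768, chrX:140308355-140308414, minus strand): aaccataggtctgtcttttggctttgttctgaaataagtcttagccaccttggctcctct
Dcx A_66_P125127 (transcript ENSMUST00000139920, chrX:140303871-140303930, minus strand): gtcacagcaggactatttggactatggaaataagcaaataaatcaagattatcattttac
Stmn2 A_55_P2935146 (transcript ENSMUST00000191847, chr3:8548549-8548608, plus strand): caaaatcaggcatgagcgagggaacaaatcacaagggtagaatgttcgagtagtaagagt
Sox11 A_65_P09624 (clone BC048721, chr12:28023292-28023351, plus strand): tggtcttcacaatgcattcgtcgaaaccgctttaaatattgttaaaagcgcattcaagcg
The first 30 of 60 bases of 2 main probes are given for comparison.
Dcx A_52_P244349 (chrX:140290854-140290913, minus strand): ataaaaagaaaagcaaaacagagatgtgcg
Stmn2 A_66_P139166 (chr3:8560382-8560441, plus strand): atggatcatgcgatatcagtatgggaagtg
The 4 Dcx probes lie on 1 strand, at steps of 5483, 7534 and 4484 bases. The 2 Stmn2 probes are 11833 bases apart. The Sox11 probe A_65_P09624 is written on the strand opposite to the other 2 Sox11 probes, 3205 bases from the nearer of them, so it reads an RNA of the other orientation.

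Levels are log2 signal relative to the 75th percentile of all probes on the same array, and differences are irradiated minus control on that scale. That percentile lay between 320 and 707 intensity units on the control arrays and between 635 and 892 on the irradiated arrays, lowest on control 1. The first principal component held 55.2% of the variation and placed control 1 at -148, with the other 5 arrays between 11.5 and 62.0. No spot was saturated. All 14 mature neuron markers were kept, as were all 9 astrocyte, 10 microglia, 7 oligodendrocyte and 6 oligodendrocyte precursor markers. Eomes, a marker of intermediate progenitors, and the endothelial genes Cldn5, Cdh5 and Tek were not kept. In these bulk samples fewer cells of a type and less RNA per cell cannot be told apart.

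The comparison of irradiated with control cultures asked whether exposure went with a change in growth cone and immature neuron genes. None of the 19 kept probes passed a Benjamini-Hochberg adjusted p of 0.05 in limma, where 0% of all 40552 kept probes did (3660 had an unadjusted p under 0.05). The lowest adjusted p among the members was 0.519, which was also the lowest over all probes. At an unadjusted p under 0.05 there was 1 member probe of 19, for a Dcx transcript, beside 9.03% of all probes. It stood higher in irradiated cultures, as did 4.02% of all probes at that p, and no member probe was lower at that p, beside 5.01% of all. With the array number as a block there were 3 member probes, beside 8.59% of all, and 0 passed the adjusted threshold. Between arrays of the same number, 3 of the 19 member probes were lower in the irradiated sample in all 3 comparisons and 3 were higher, where 21.6% and 11.7% of all probes were. The main probes of 9 genes stood lower in irradiated cultures and that of Dcx stood higher, with 56% of all probes lower. All 10 of their 95% intervals included 0. The median of the 10 differences was -0.37, and that of the main probes of all 26157 genes was -0.13.

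Brightness and scaling moved with this direction. Among all kept probes with a mean level of 4 or more, 91.4% of 2920 were lower in irradiated cultures, with a median of -0.28, and all 9 member probes of that brightness were lower. Quantile normalisation gives every array the same distribution, and after it the median of the 10 members was -0.05, with 7 lower and 3 higher. That of the main probes of all 26157 genes was then also -0.05. In the bright band 47.6% of all probes and 6 of the 9 member probes were then lower. Under the 75th percentile scaling the median of the members was -0.05 without irradiated 1, -0.19 without control 2 and -0.56 without irradiated 3.

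**Figure D1:**
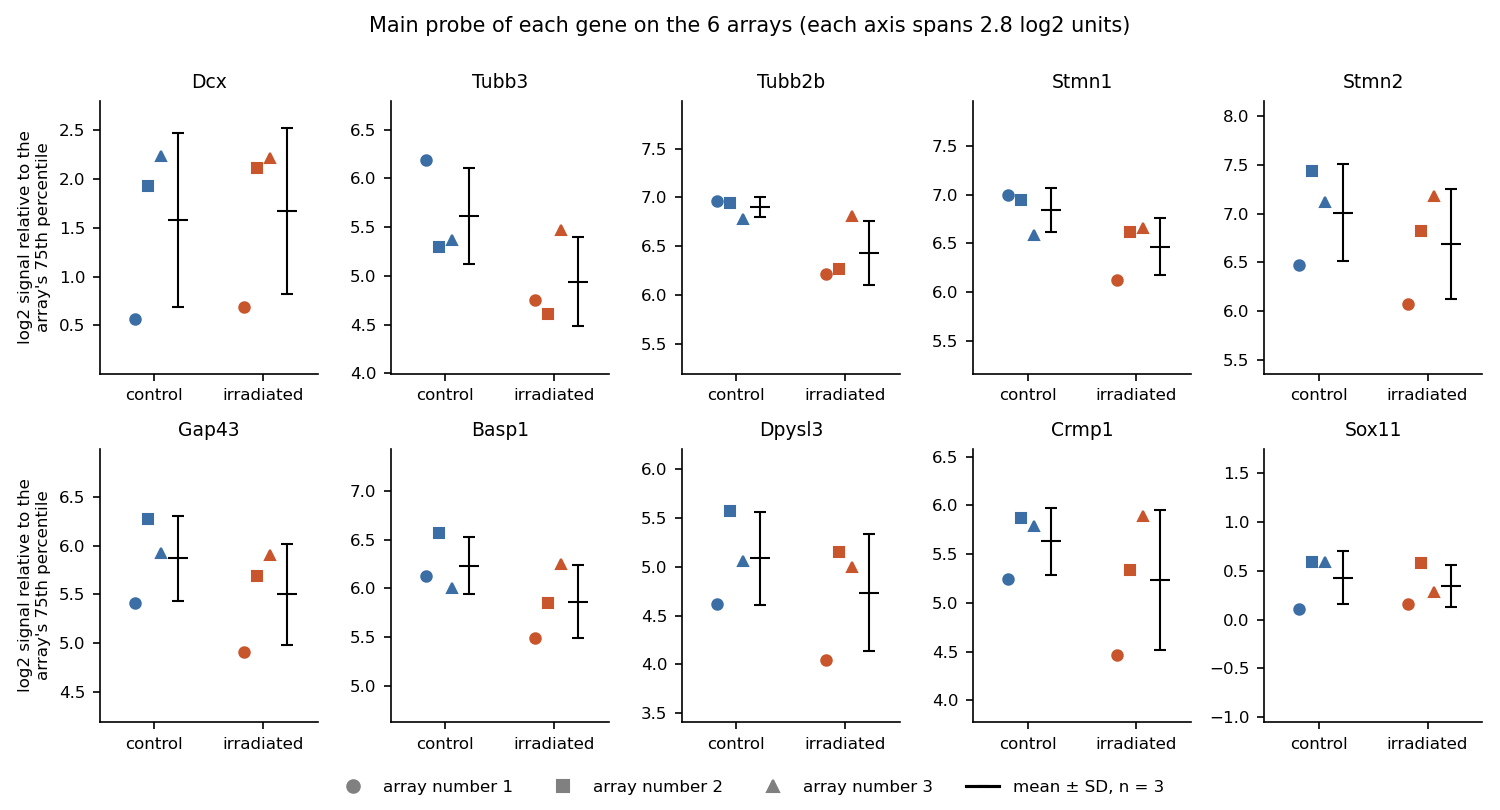
Main probe of each of the 10 genes by array (log2 of signal over the array's 75th percentile), with array numbers as symbols and group mean ± SD (n = 3) beside them. Every axis spans the same range, and in all 10 genes the groups overlap; the arrays numbered 1 are lowest in both groups for Dcx, Stmn2, Gap43, Dpysl3, Crmp1 and Sox11.

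Values below are given in the order of the array numbers 1 to 3. Sox11 activates genes of newborn neurons. Its main probe measured 0.11, 0.59 and 0.59 in controls and 0.16, 0.58 and 0.29 in irradiated cultures. The arrays numbered 1 were lowest in each group and the groups overlapped. The difference was -0.09 with a 95% interval from -0.64 to 0.46, or 0.64-fold to 1.38-fold (limma, adjusted p 0.920). Without irradiated 1 it was 0.0049 and without control 1 it was -0.25. The second probe on that strand differed by -0.07. The probe of the opposite strand, whose sequence is given above, measured -0.40, 0.60 and 0.32 in controls and -0.69, -0.23 and 0.49 in irradiated cultures. It differed by -0.32 (interval -1.21 to 0.57), and its groups overlapped too.

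Dcx encodes doublecortin, a protein that binds microtubules in migrating and newly formed neurons. Its main probe measured 0.57, 1.93 and 2.24 in controls and 0.69, 2.11 and 2.21 in irradiated cultures. Values were low on the array numbered 1 of each group and close together on the other arrays, so that the groups overlapped over their whole range. The means were 1.58 ± 0.89 and 1.67 ± 0.85 (SD, n = 3 each). Their difference was 0.09 (interval -1.20 to 1.39, adjusted p 0.968). The sign turned without control 1 (-0.41), without irradiated 2 (-0.13) and without irradiated 3 (-0.18), and the difference was 0.58 without irradiated 1.

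Tubb3 encodes class III beta-tubulin, a tubulin of neurons. It measured 6.19, 5.30 and 5.37 in controls and 4.75, 4.61 and 5.47 in irradiated cultures. Control 1 was the highest value, and irradiated 3 lay within the control range. The difference of -0.67 was the largest among the main probes, with an interval from -1.47 to 0.12 (adjusted p 0.520), and it was -0.38 after quantile normalisation. Without control 1 it was -0.39.

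Tubb2b encodes another beta-tubulin that is abundant in developing brain. It measured 6.97, 6.95 and 6.78 in controls, the narrowest control range of the 10 main probes, and 6.22, 6.27 and 6.81 in irradiated cultures. Irradiated arrays 1 and 2 were below every control, and irradiated 3 stood just above the lowest control. The difference was -0.47 with an interval from -1.01 to 0.08 (adjusted p 0.520), and -0.04 after quantile normalisation.

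Stmn1 encodes stathmin, a cytosolic protein that sequesters tubulin. It measured 6.998, 6.94 and 6.58 in controls and 6.13, 6.61 and 6.65 in irradiated cultures. The groups overlapped through control 3. The main probe differed by -0.38 (interval -0.94 to 0.19) and the second kept probe by -0.18 (interval -0.70 to 0.34). After quantile normalisation both stood above 0, at 0.05 and 0.11. Without irradiated 1 the main probe differed by -0.21.

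Stmn2 encodes a stathmin that is anchored to membranes and concentrated in growth cones. Its main probe measured 6.47, 7.44 and 7.12 in controls and 6.07, 6.82 and 7.18 in irradiated cultures. The arrays numbered 1 were again lowest in each group, and the groups overlapped. The difference was -0.32 with an interval from -1.18 to 0.54 (adjusted p 0.761), and it was 0.11 after quantile normalisation. Without irradiated 1 it was -0.011, and without control 1 it was -0.59.

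Gap43 encodes a substrate of protein kinase C at the growth cone membrane. It measured 5.41, 6.27 and 5.93 in controls and 4.91, 5.69 and 5.90 in irradiated cultures, lowest on the array numbered 1 of each group. It differed by -0.37 (interval -1.17 to 0.43, adjusted p 0.694), and by -0.08 after quantile normalisation. Without irradiated 1 it differed by -0.076, without control 2 by -0.17 and without control 1 by -0.60. Basp1, which encodes a membrane protein of similar location, measured 6.13, 6.57 and 6.01 in controls and 5.49, 5.85 and 6.25 in irradiated cultures. Its irradiated 3 lay between the controls. The difference was -0.37 (interval -1.01 to 0.27) and rounded to 0.00 after quantile normalisation, at -0.004. Without irradiated 1 it was -0.18, without control 2 it was -0.20 and without irradiated 3 it was -0.56.

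Dpysl3 and Crmp1 encode collapsin response mediator proteins. The main probe of Dpysl3 measured 4.62, 5.57 and 5.06 in controls and 4.05, 5.15 and 5.00 in irradiated cultures, a difference of -0.35 (interval -1.23 to 0.52). That difference was -0.010 without irradiated 1, -0.11 without control 2, -0.59 without control 1 and -0.56 without irradiated 2. Its other 2 probes differed by -0.05 and 0.08. All 3 probes were lowest on the array numbered 1 of each group, and their groups overlapped. Crmp1 measured 5.24, 5.87 and 5.78 in controls and 4.47, 5.34 and 5.89 in irradiated cultures, with irradiated 1 the lowest and irradiated 3 the highest value of all 6. Its difference was -0.40 with an interval from -1.30 to 0.50 (adjusted p 0.707). It was -0.016 without irradiated 1 and -0.73 without irradiated 3.

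**Figure D2:**
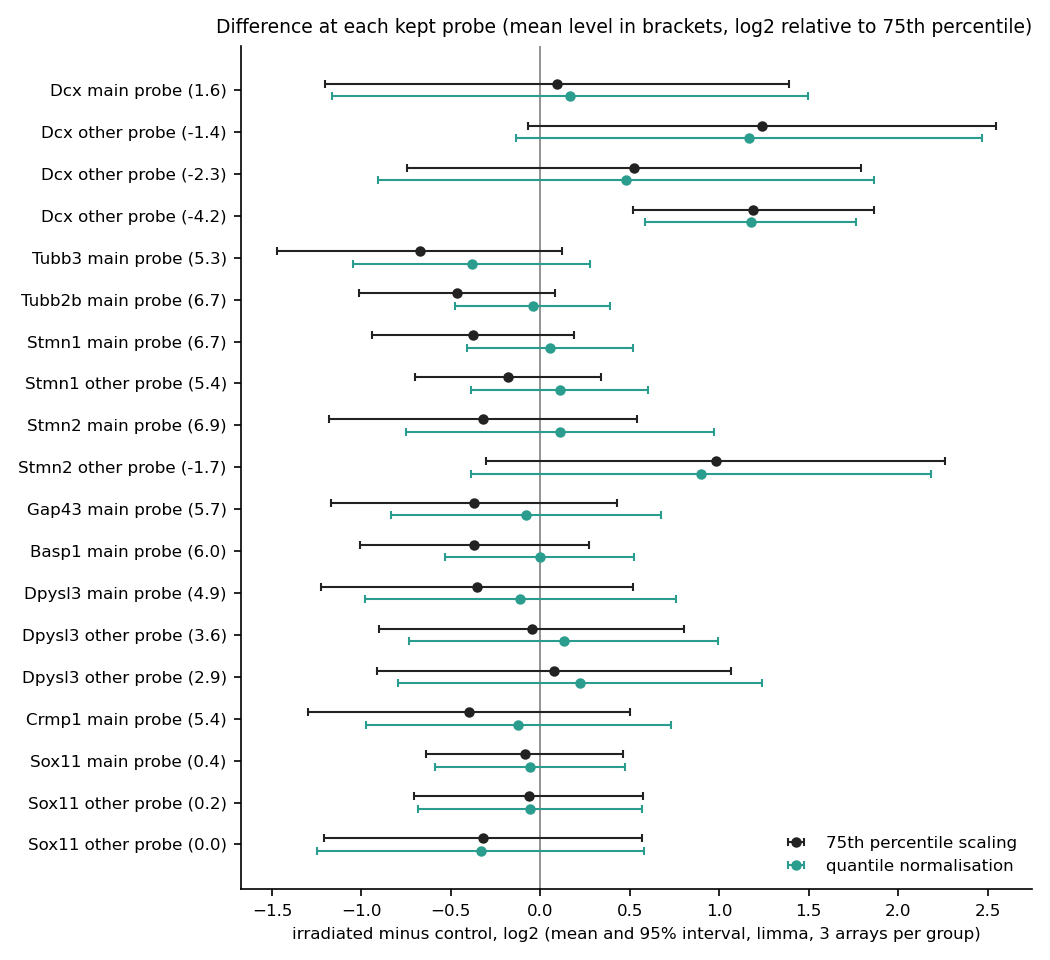
Irradiated minus control on the log2 scale for the 19 kept probes, with 95% limma intervals from 3 arrays per group, under 75th percentile scaling and under quantile normalisation; the mean level of each probe stands in brackets. The bright probes lie below 0 under the first scaling. Under the second they lie near 0 except Tubb3, at -0.38. The dim Dcx and Stmn2 probes lie above 0 under both.

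Probes of other transcripts of Dcx and Stmn2 had differences above those of the main probes, a contrast that was not tested. Dcx A_55_P2632951 measured -5.29, -4.38 and -4.86 in controls and -3.63, -3.42 and -3.92 in irradiated cultures. All 3 irradiated values lay above the controls, which was the case for 1 of the 19 member probes and for 5.76% of all probes. The difference was 1.19 with an interval from 0.52 to 1.86, or 2.28-fold, with an unadjusted p of 0.0038 and an adjusted p of 0.519. It was a dim probe: its processed signal was 8.15, 22.3 and 24.3 intensity units in controls and 68.1, 83.5 and 42.0 in irradiated cultures, and it was not well above background on control 1. With normexp, a correction of the raw spot signal that adds an offset of 50 units, its difference was 0.00029. With normexp and quantile normalisation together the difference was 0.41 (limma, unadjusted p 0.0087, adjusted p 0.638). The part of background correction in this result was not tested beyond these values.

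Dcx A_66_P125127 measured -3.33, -0.91 and -1.71 in controls and -0.96, -0.67 and -0.60 in irradiated cultures. Control 1 stood far below the others, and irradiated 1 lay just within the control range. The difference was 1.24 (interval -0.07 to 2.55, adjusted p 0.519), and 0.57 without control 1. With the array number as a block the interval was 0.15 to 2.33 (unadjusted p 0.033, adjusted p 0.495 in limma). Dcx A_55_P2080126 differed by 0.52 (interval -0.75 to 1.79), by 0.081 without control 2 and by 1.09 without control 3. Stmn2 A_55_P2935146 measured -3.39, -1.10 and -2.10 in controls and -1.68, -0.98 and -0.98 in irradiated cultures. It differed by 0.98 (interval -0.30 to 2.26, adjusted p 0.533), and by 0.39 without control 1. With the block its interval was 0.11 to 1.85 (unadjusted p 0.034, adjusted p 0.495 in limma). Whether these probes and the main probe of their gene differ in response was not tested.

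**Figure D3:**
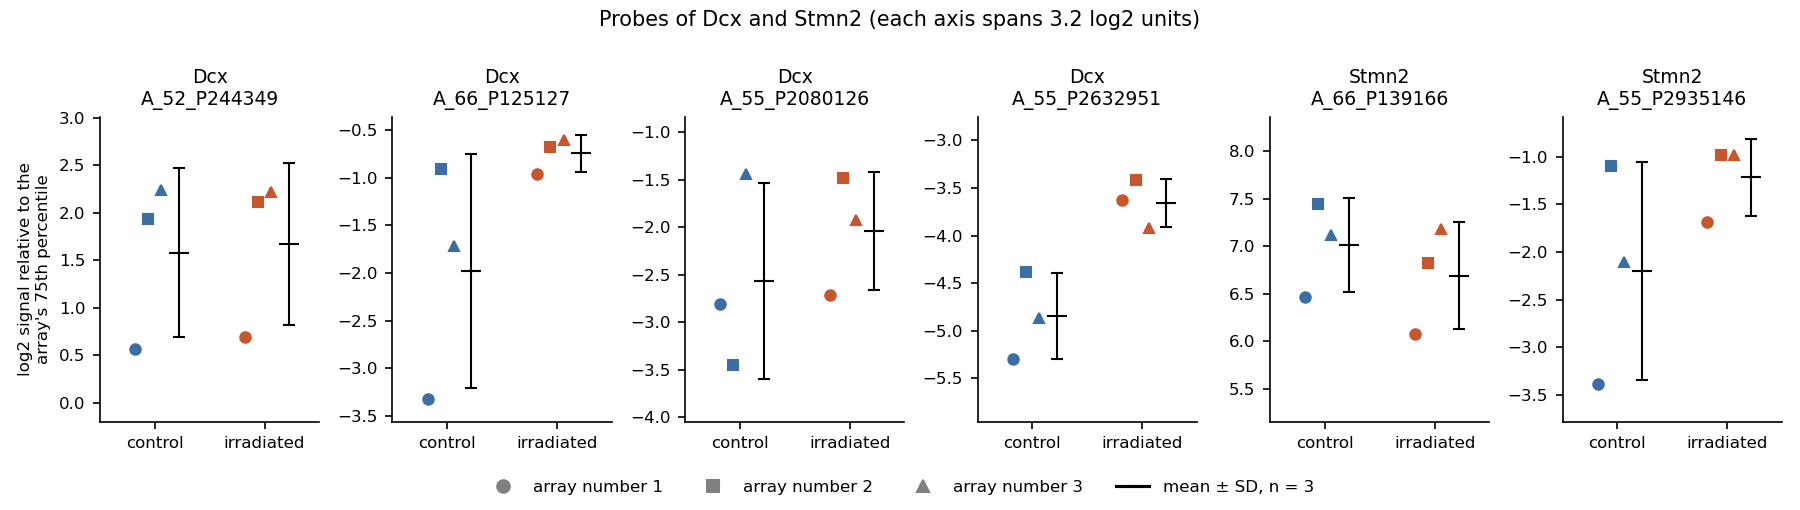
Level of the 4 Dcx probes and the 2 Stmn2 probes by array, on the same log2 scale as the levels above, with array numbers as symbols and group mean ± SD (n = 3). The main probes, A_52_P244349 and A_66_P139166, overlap between groups, and A_55_P2632951 is the one in which all irradiated arrays lie above all controls.

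The range over the 3 controls exceeded the difference between groups for 9 of the 10 main probes, Tubb2b being the exception. The difference exceeded the pooled SD within groups for 4 main probes, those of Tubb3, Tubb2b, Stmn1 and Basp1, and stayed below it for the other 6. The pooled SD within groups was 0.87 for the main probe of Dcx, above that of 94.6% of all kept probes, whose median was 0.35. It was 0.24 for Tubb2b and 0.25 for Sox11.

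Much of this spread lay with the arrays numbered 1. The array numbered 1 was the lowest of its group in both groups for 12 of the 19 member probes and for 6 of the 10 main probes, those of Dcx, Stmn2, Gap43, Dpysl3, Crmp1 and Sox11. The share over all kept probes was 24.1%. It was the highest of both groups for 0 of the 19, and for 17.7% of all probes. Compared with the mean of arrays 2 and 3, the main probe of Dcx was at -1.52 in controls and -1.47 in irradiated cultures. The same quantity was -0.81 and -0.92 for Stmn2, and -0.69 and -0.88 for Gap43. For Dpysl3 it was -0.70 and -1.03, for Crmp1 -0.59 and -1.15, and for Sox11 -0.47 and -0.28. Tubb3, Stmn1 and Tubb2b went the other way in controls, at 0.85, 0.24 and 0.11. In irradiated cultures they did not, at -0.28, -0.51 and -0.32. Basp1 was at -0.16 in controls and -0.56 in irradiated cultures. After quantile normalisation the value for Dcx was -1.48 in controls and -1.50 in irradiated cultures, and 14 of the 19 member probes were lowest on array 1 of both groups, beside 24% of all probes. Control 1 had the lowest 75th percentile signal of the 6 arrays and irradiated 1 the second highest, at 841 intensity units.

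Astrocyte, microglia and oligodendrocyte markers mostly stood high on those arrays, and oligodendrocyte precursor markers did not. The array numbered 1 was the highest of both groups for 8 of 9 astrocyte markers, 9 of 10 microglia markers and 6 of 7 oligodendrocyte markers. The median level of the astrocyte list, each gene taken relative to its own mean, ranged from -0.35 to 0.80 in controls and from -0.51 to 0.40 in irradiated cultures, highest on array 1 of each. That of the microglia list ranged from -1.21 to 1.46 and from -1.13 to 1.64. Of the 6 oligodendrocyte precursor markers, 3 were lowest and 1 was highest on array 1 of both groups, and the median of that list was -0.28 on control 1 and -0.25 on irradiated 1. None of these markers fell out at the filter. Gfap, the intermediate filament of astrocytes, measured 5.21, 4.42 and 3.78 in controls and 5.53, 4.55 and 4.08 in irradiated cultures. Mki67, a marker of dividing cells, measured 1.44, 0.26 and 0.25 in controls and 1.63, 0.66 and 0.31 in irradiated cultures. Its list of radial glia and dividing progenitors was mixed. Of the 11 kept genes in it, 6 were highest and 3 were lowest on array 1 of both groups. The part of glial or dividing cells in the members' values was not tested.

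Between groups the mature neuron genes had a median difference of -0.37, with 12 of 14 lower, and of -0.05 after quantile normalisation, values that round to those of the members. By array number they were lowest on array 1 less often than the members, a difference that was not tested. The array numbered 1 was lowest in both groups for 2 of 14 and highest for 1 of 14, and their median level was 0.48 on control 1 and -0.28 on irradiated 1, where the members stood at -0.23 and -0.66. Rbfox3, which encodes the neuronal nuclear protein NeuN, measured 5.36, 5.25 and 5.44 in controls and 4.90, 4.98 and 5.26 in irradiated cultures.

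**Figure D4:**
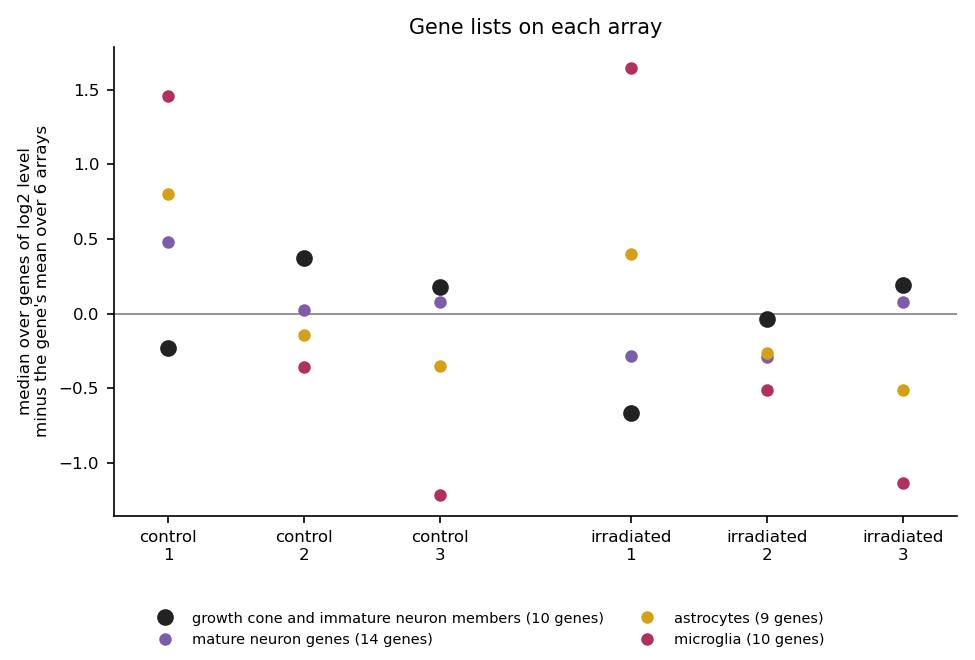
Median level on each array of the 10 members and of the mature neuron, astrocyte and microglia lists, each gene taken relative to its mean over the 6 arrays (log2). On control 1 and irradiated 1 the members stand at -0.23 and -0.66 while the microglia list stands at 1.46 and 1.64.

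Other genes of growth cones and immature neurons were taken as 7 lists of 65 genes, all of which were kept. None passed the adjusted threshold in either direction (limma), and 2 of 65 had an unadjusted p under 0.05, beside 9.03% of all probes. Of the 65, 50 stood lower and 15 higher in irradiated cultures, where 56% of all probes were lower. That share rose with brightness, to 74.3% at mean levels from 2 to 4 and 91.4% at 4 or more. The median of the 65 was -0.13, equal after rounding to that of all genes. After quantile normalisation it was 0.08, beside -0.05 for the main probes of all genes. The array numbered 1 was lowest in both groups for 33 of the 65, beside 24.1% of all probes. It was highest in both for 4 of the 65, beside 17.7% of all probes.

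Within these lists the relatives of the members were as follows. Sox4, the SoxC partner of Sox11, differed by -0.30, and Sox12 by 0.84. The stathmins Stmn3 and Stmn4 differed by -0.49 and -0.24, and by 0.01 and 0.22 after quantile normalisation. The response mediator genes Dpysl2, Dpysl4 and Dpysl5 differed by -0.0040, -0.36 and -0.20. Dpysl5 was low on the arrays numbered 1, at 3.59 against 5.07 and 4.87 in controls and 3.36 against 4.87 and 4.69 in irradiated cultures. The groups overlapped for all 7 of these genes.

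Of 11 tubulin genes, 10 stood lower, with a median of -0.43, which was -0.04 after quantile normalisation. Tuba1a, the main alpha-tubulin of developing neurons, differed by -0.49 and by 0.0016 after quantile normalisation, and Tubb5 by -0.67 (unadjusted p 0.045, adjusted p 0.519) and -0.22. These tubulins were lowest on array 1 of both groups for 0 of 11 and highest for 3 of 11, and their median was 0.70 on control 1. The tubulins among the members, Tubb3 and Tubb2b, also had their highest control value on control 1. Of 11 microtubule-associated genes, 7 stood lower and 4 higher. Map1b, which stabilises axonal microtubules, differed by -0.39, and Dclk2, a relative of doublecortin, by -0.31.

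Among 21 genes of the growth cone membrane and its actin, 14 stood lower and 7 higher. Cfl1, which encodes the actin-severing protein cofilin, differed by -0.83 (unadjusted p 0.037, adjusted p 0.519), and its control values spanned 6.79 to 5.79. Evl, an actin regulator of the Ena/VASP family, measured 5.81, 6.01 and 5.81 in controls and 5.05, 5.49 and 5.77 in irradiated cultures, all below the controls. Its difference was -0.44 with an adjusted p of 0.531. Marcks, a membrane protein related in function to Gap43, differed by -0.14. Of 15 further immature neuron genes 13 stood lower, among them Nhlh1, a transcription factor of newborn neurons, at -0.45, and Tmsb10, an actin-binding thymosin, at -0.56. Groups that did not overlap, lower in irradiated cultures, were found for 3 of the 65 genes, beside 9.77% of all probes.

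The genes whose level over the 6 arrays most resembled the mean of the 10 members were Tsacc, B4galt2, Fgf18, Mex3b, Lingo3, Hcrt, Ybx1 and Fcor. Their Pearson correlations with it ran from 0.991 for Fcor to 0.996 for Tsacc, over 6 arrays and among 8046 genes with an SD of at least 0.3. Hcrt was dim, between -4.08 and -2.88, and Fcor is annotated as a predicted RNA. The correlations describe the same 6 arrays that gave the members' mean, and they were not tested.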

How the data were processed

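The authors deposited spot intensity values. Software version 10.7.1.1 of Agilent Feature Extraction is named in the submitters' processing notes. Per the file headers the signal is background subtracted and detrended within an array, not normalised between arrays. The recorded size (root mean square) of the multiplicative detrending was 0 on control 1. On the other arrays it lay between 0.013 (irradiated 3) and 0.038 (control 2). The part of this difference in the values of control 1 was not tested. RNA (0.2 µg per sample, per the labels) was labelled with Cy3. The authors also deposited a log2 table. From its values it is quantile normalised and not centred. It ranks probes as the scanner signal does, with a rank correlation of 0.997 for control 1 and of 1 for the other arrays. Its software is not given in the sources. The 6 arrays shared 1 slide and 1 scan. The controls and irradiated 1 occupied its row 1 and irradiated 2 and 3 its row 2, and the part of position was not tested.

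Spots marked as outliers were left out, spots of a probe averaged, log2 taken and the array's 75th percentile over 56595 probes subtracted. A probe was kept if well above background on at least 3 of 6 arrays. Groups were compared over all kept probes with limma 3.58.1 in R 4.3.3, without covariates, with Benjamini-Hochberg adjustment, after a test on simulated data. Members and lists were chosen with earlier results of these data known. The genes named are the members, relatives fixed by name, the 2 genes of each list with the smallest unadjusted p (given for the pathway lists) and the 8 most like the members' mean.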

Additional observations from a re-analysis of the deposited data

How the results depend on the processing

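The count of all probes past the adjusted threshold, 0 as reported, was 5170 with array weights (3.88 for control 2, 4.65 for irradiated 2, from 0.21 to 0.71 elsewhere), 4 with quantile normalisation and 4 with the authors' deposited log2 values. Member probes past it numbered 0 of 19 as reported. With array weights they numbered 3 of 19, beside those 5170 of all 40552 kept probes: Tubb2b (-0.60), Dcx A_55_P2632951 (0.98) and Dcx A_55_P2080126 (1.504). With one array left out both counts ranged from 0 to 0, and the median of the members from -0.56 to -0.05. The median of all kept probes was -0.05 as reported, -0.20 with normexp, -0.15 without the filter and -0.12 with the median of kept probes as scale, a setting chosen after seeing the data, as were the brightness bands and the alternatives for the other probes.

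Signs turned as follows, none at a probe past the threshold. With quantile normalisation (with or without the replicate block) and with the deposited table, Stmn1 stood at 0.053 and 0.055, its second probe A_55_P2043862 at 0.11 in both, Stmn2 at 0.11 in both and Dpysl3 A_51_P115441 at 0.13 in both. With normexp and quantile normalisation these were 0.11 for the second Stmn1 probe, 0.12 for Stmn2 and 0.12 for Dpysl3 A_51_P115441. The last stood at 0.013 with normexp and at 0.0055 without both arrays numbered 1, and the mean of the Stmn2 probes at 0.33. With one array left out, Dcx ranged from -0.41 to 0.58, Sox11 from -0.25 to 0.0049, Sox11 A_52_P160955 from -0.27 to 0.12, Dpysl3 A_51_P115441 from -0.31 to 0.27 and Dpysl3 A_65_P10878 from -0.28 to 0.44.

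Groups share the numbers 1 to 3, and deviations of same-numbered arrays from their group means correlated at 0.46, 0.33 and 0.086 over all kept probes and at 0.53, 0.42 and 0.22 over main probes. Irradiated 2 correlated best with control 3 over all kept probes (0.36) and with control 2 over main probes. Irradiated 3 correlated best with control 2 over all kept probes (0.15) and with control 3 over main probes. The measures differ on these matches and on whether the third pair passes 0.1. Whether the numbers pair the samples is therefore not settled, and the fit without the block is the one reported. The replicate block gave 0 probes past the threshold (lowest adjusted p 0.495), and 3 member probes at unadjusted p under 0.05 beside 8.59% of all. With quantile normalisation added, 0 of all probes passed the adjusted threshold. The same 3 member probes then had unadjusted p of 0.036 (Dcx A_66_P125127), 0.0030 (Dcx A_55_P2632951) and 0.038 (Stmn2 A_55_P2935146) in limma.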
